A study of Mus musculus with 24 samples.

Results

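The libraries of mouse heart fibroblasts with Erg at day 7 were compared with those of control fibroblasts at day 7, over every gene measured. The comparison holds 6 of the 24 RNA sequencing libraries, 3 with Erg and 3 of control, taken by the condition and the day in their labels. The other 18 libraries are Sox17, SEG and the day 3 groups, and they enter here for the spread and where a difference of the Erg effect was tested. All cells were heart fibroblasts kept in EGM2, a medium made for endothelial cells, so control cells shared that medium. The series asks how far each condition takes on endothelial gene expression, and calls the cells with factors aiECs without spelling the name out. The labels do not say how Erg was delivered, from what strain or how many animals the fibroblasts came, or what SEG stands for. Whether the 3 replicates were grown apart is not stated. The p-values here therefore rest on replicate spread that could be technical. Of 35727 genes in the table, 14804 had enough counts to be tested.

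Erg is a transcription factor of the ETS family, whose members bind DNA at a GGAA core. In endothelial cells it keeps junction and receptor genes on and holds inflammatory genes low, and it works beside related factors such as Fli1 and beside SOX factors. Heart fibroblasts lack it and are marked by collagens, small proteoglycans and the receptor Pdgfra. An endothelial cell is recognised by the cadherin Cdh5, the receptors Kdr, Tie1 and Tek and the junction protein Cldn5, and Notch ligands and receptors set arterial character among such cells.

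The factor itself was read first. Erg (ENSMUSG00000040732, protein coding, chromosome 16, 95359169 to 95586593, minus strand, mm10) stood at 5809, 5277 and 4327 CPM with Erg and 0.113, 0 and 0 CPM in control, where CPM is the usual depth-scaled count on the TMM-scaled library size. The control libraries held 2, 0 and 0 counts of it, and the ratio of the groups was 158652 (95% interval from counting, 43919 to 1310040). All 6 libraries lay on the side their labels name. Below, values of a gene are those of the 3 Erg libraries against the 3 control libraries, each in the order of replicates 1 to 3, and a bare number in brackets is a log2 change. The table holds 1 count a gene, so an added copy of Erg and the endogenous gene are counted together. Sox17 had 2, 2 and 8 counts with Erg and 0 in each control library, which did not pass the test (adjusted p = 0.0565). Intervals and floors given here cover counting error only.

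Total counts ran from 18830407 to 30918243 with Erg and from 19183807 to 24782231 in control. The first principal component of the 6 libraries carried 84.8% of the variance and separated the conditions. Replicate 3 of Erg held more ribosomal protein reads than the others, 5.26% of its counts against 4.18% to 4.50% in the rest of its group and 3.91% to 4.0% in control. In the fit, which takes its spread from all 24 libraries, replicate 1 of Sox17 and replicate 1 of SEG at day 7 stood apart from their groups.

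Erg was followed by changes over much of the transcriptome. By edgeR's quasi-likelihood test, 3512 genes were higher with Erg (23.7% of those tested), 3670 were lower (24.8%) and 7622 did not pass an adjusted p of 0.05. Without the 2 outlying day 7 libraries of the other conditions, 5287 were higher and 4891 lower. The changes beyond 2-fold leaned upward, with 1787 called genes above a log2 change of 1 and 1353 below −1. The middle of the distribution stayed near no change, with a median log2 change of −0.02 and quartiles of −0.47 and 0.45. Of the genes called higher, 111 had no count in any control library, and 11 called lower had none with Erg.

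**Figure D1:**
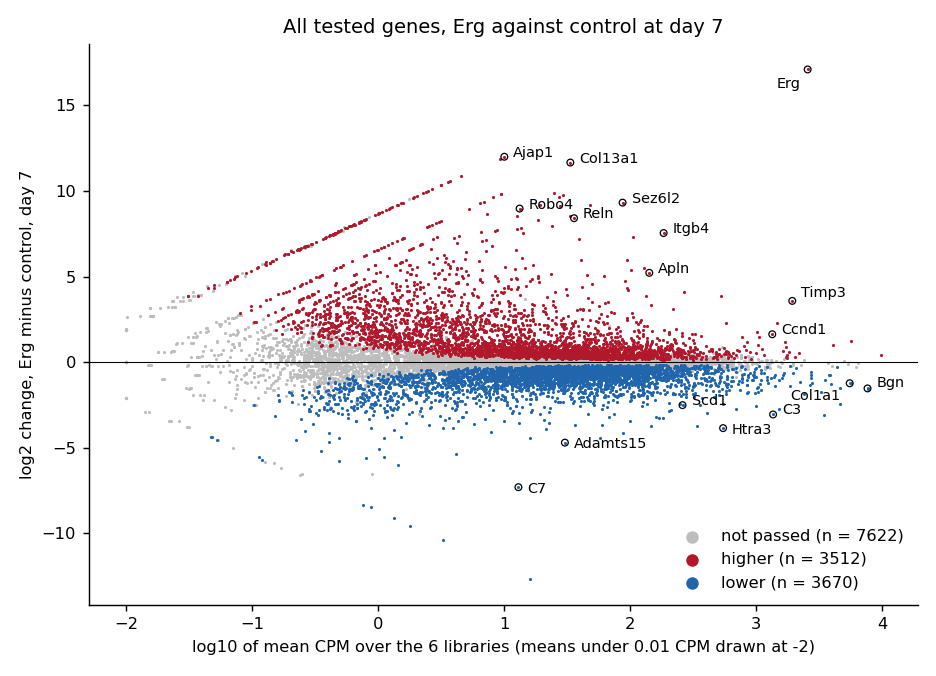
Each point is a tested gene, with the log10 of its mean CPM over the 6 day 7 libraries on the x axis and its log2 change, Erg minus control, on the y axis. Red points are the 3512 genes called higher, blue the 3670 called lower and grey those that did not pass, and the rows of red points at the upper left are genes with 0 or few counts in control.

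Gene lists covering vessel, matrix, signalling, metabolic and cell type genes were counted against that background of 23.7% higher and 24.8% lower. Sterol synthesis and macrophage genes moved nearly as whole lists, in opposite directions. Endothelial receptors and junction proteins were more often higher than lower, and fibroblast and cartilage genes more often lower. The lists were not tested as sets, and each is described by its counts and its median. Without the 2 outlying day 7 libraries some counts grew by over 1.5 times, to 26 respiratory chain genes higher, 12 lysosomal genes higher and 14 lower, 4 antigen presentation genes higher and 8 lower, 5 chaperones higher and 7 lower, 7 contractile genes lower and 4 Notch genes lower. Calls over all genes grew too in that setting, to 5287 higher and 4891 lower of 15003 tested. The shares of 23.7% and 24.8% are therefore not the background of these larger counts.

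**Figure D2:**
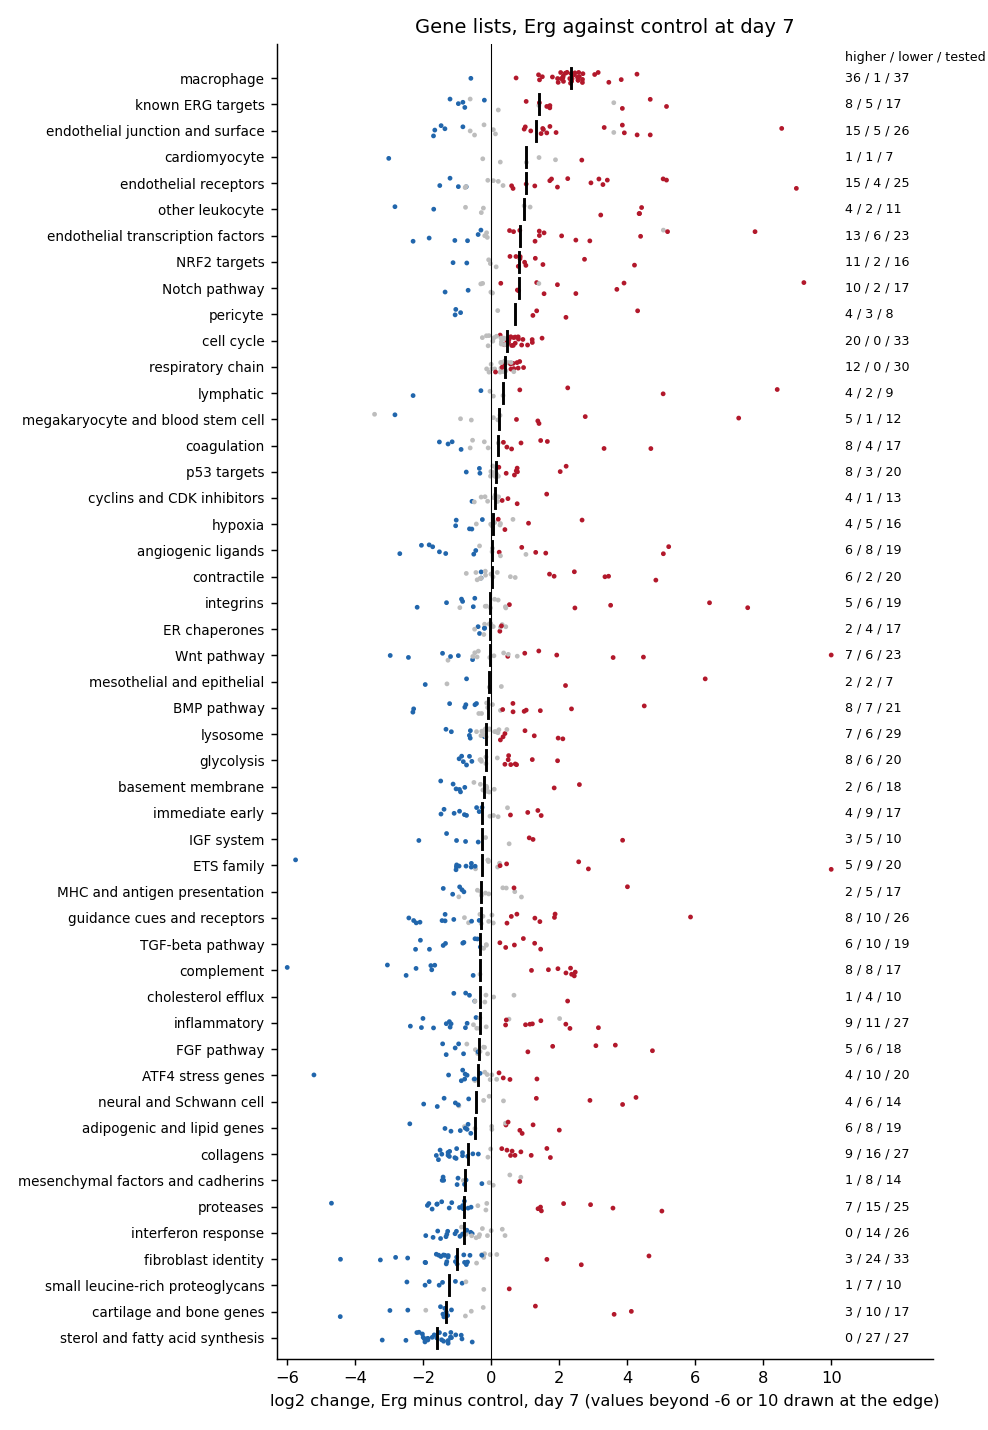
Each row is a gene list and each point a tested member at its log2 change, Erg minus control at day 7, red where called higher, blue where called lower and grey where not passed; black bars are medians. Sterol and fatty acid genes lie wholly below 0, 27 of 27 called lower, and 36 of 37 macrophage genes were called higher, while most lists have members on both sides.

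The genes with the largest rises at 10 CPM or more belonged to several tissues. Ajap1, an adherens junction associated membrane protein, stood at 19.0, 20.5 and 20.6 against 0, 0 and 0 CPM, at least 424-fold higher over a control at 0 counts. Wnt9b, a Wnt ligand, stood at 18.3, 18.0 and 19.0 against 0, 0 and 0 CPM and was at least 391-fold higher. Col13a1, a transmembrane collagen (chromosome 10, 61838236 to 61979108, minus strand), stood at 73.0, 65.6 and 62.4 against 0, 0.0455 and 0 CPM, a ratio of 4198 (95% interval from counting, 753 to 165826). All 3 were also called higher with Erg than in SEG and than with Sox17 at day 7. Col13a1 in SEG stood at 0.0478, 0 and 0 CPM and with Sox17 at 0.0227, 0 and 0 CPM.

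The other large rises held genes of various kinds. Sez6l2, a membrane protein of neurons, stood at 190.3, 161 and 171 CPM with Erg and 0.170, 0.182 and 0.423 CPM in control (log2 change 9.32 ± 0.42, SE). Bcan, the brain proteoglycan brevican, stood at 61.2, 53.2 and 62.2 against 0, 0.0455 and 0.127 CPM (9.76), and Hs3st4, a heparan sulfate sulfotransferase, at 52.1, 53.5 and 56.7 against 0.170, 0.0455 and 0 CPM (9.63). Lrrc4b, a synaptic adhesion protein, reached 49.8 ± 4.19 against 0.0471 ± 0.0431 CPM (SD, n = 3), a ratio of 1058 (95% interval from counting, 362 to 5134). Npffr1, a neuropeptide receptor, reached 18.0, 16.0 and 15.1 CPM, a ratio of 1026 (95% interval from counting, 184 to 40539), and its Erg effect was larger at day 7 than at day 3 by 5.91 (adjusted p = 2.86e-06). The remaining large rises included St6galnac3, Lyzl4, Slc16a12, Necab2 and Tmem132b, each with 1 to 4 counts over the control libraries. Of a separate list of 14 tested neural and Schwann cell genes, 4 rose and 6 fell, with Nefm, a neurofilament subunit that overlaps Nefl, at 10.7, 11.3 and 10.7 against 0.454, 0.500 and 0.719 CPM (log2 change 4.26). The Schwann cell factor Sox10 was at or under 0.0978 CPM in every one of the 6 libraries and was not tested.

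The largest falls were of secreted and matrix proteins. C7, a terminal complement component (chromosome 15, 4988762 to 5063740, minus strand), stood at 0.185, 0.0489 and 0.213 CPM with Erg and 31.8, 23.4 and 22.1 CPM in control (log2 change −7.30 ± 0.38, SE, adjusted p = 2.28e-10). At day 3 it stood at 1.73, 1.54 and 1.54 CPM in control and 0.621, 0.342 and 0.635 CPM with Erg, and the Erg effect differed between the days by −5.75 (adjusted p = 1.93e-06). Adamts15, a matrix metalloprotease, stood at 2.40, 2.10 and 2.22 against 71.2, 52.6 and 51.5 CPM (log2 change −4.70 ± 0.28, SE). Mfap4, a microfibril protein, stood at 4.99, 4.26 and 6.0 against 132, 101 and 99.0 CPM (log2 change −4.43 ± 0.16, SE), and Htra3, a secreted serine protease, at 73.5, 61.9 and 77.3 against 1123, 1024 and 925 CPM (log2 change −3.85 ± 0.15, SE). Every Erg library lay below every control library for these 4 genes, which the rule that picked them required.

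Other large falls were those of Prg4, the lubricant proteoglycan of joints (−4.44), Hp, the haemoglobin binding protein haptoglobin (−4.11), Adamtsl2, a microfibril binding protein (−3.74), and Thbs3, a thrombospondin (−3.44). Pappa, a protease that frees insulin-like growth factors from a binding protein, stood at 2.08, 2.69 and 1.37 against 26.8, 24.7 and 20.4 CPM (−3.58). Igsf10, Srpx, Lgi2, Smtnl2 and Cdh19 fell by 4.10, 3.93, 3.68, 3.59 and 3.54 on the log2 scale. Prg4, Mfap4, Igsf10, Srpx and Thbs3 overlap another annotated gene, and the strand setting of the counting is not given in the sources used here. The same holds below for Gja5, Nid2, Col18a1, Mmp12, Plin4, Pltp, Gapdh, Ctsd, Ccne2, Ccnd1 and Irf7, so reads of such pairs cannot be told apart.

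Endothelial receptors were among the clear rises, in a fibroblast background. Of 25 tested, 15 rose, 4 fell and 6 did not pass, with a median log2 change of 1.03. Kdr, VEGF receptor of angiogenesis (chromosome 5, 75932827 to 75978458, minus strand), stood at 49.2, 48.0 and 40.5 CPM with Erg and 0.907, 1.18 and 1.69 CPM in control (log2 change 5.16 ± 0.36, SE, adjusted p = 3.95e-10). Robo4, a guidance receptor of endothelium (chromosome 9, 37401897 to 37415115, plus strand), stood at 27.5, 26.2 and 25.6 CPM with Erg and 0.170, 0 and 0 CPM in control, a ratio of 555 (95% interval from counting, 189.6 to 2694). Lyve1, a hyaluronan receptor of lymphatic endothelium and of some macrophages, stood at 134, 120.0 and 108 CPM with Erg and 3.69, 3.55 and 3.64 CPM in control (log2 change 5.06 ± 0.28, SE). Erg and control libraries did not overlap for any of the 3. The share of all tested genes without such overlap is not given here, so this does not set these genes apart.

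Other receptors of the list went both ways. Tie1, a receptor tyrosine kinase of endothelium, stood at 0.370, 0.880 and 0.457 against 0, 0.136 and 0 CPM, a ratio of 11.5 (95% interval from counting, 3.68 to 58.3). Flt4, a receptor of lymphatic growth factors, was already present in control, at 213, 202 and 155 against 37.2, 43.3 and 39.3 CPM (log2 change 2.25), as was Eng, a coreceptor of the BMP pathway (1380.0 ± 111 against 677 ± 12.7 CPM, SD, n = 3, log2 change 1.03). Stab1 and Cd93 rose by 3.29 and 3.17, and both are also made by macrophages. Tek, the angiopoietin receptor that mature endothelium carries, went the other way, at 11.5, 10.8 and 9.54 against 27.3, 23.5 and 22.7 CPM (log2 change −1.21 ± 0.16, SE). Calcrl, the adrenomedullin receptor, and Nrp1, a semaphorin and growth factor coreceptor, also fell (−1.51 and −0.74).

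Junction and surface proteins of endothelium divided in a like way, with 15 of 26 tested higher, 5 lower and 6 not passed. Their median log2 change was 1.31, or 1.08 with Cldn5 at its bound. For 11 of the 26 the Erg effect was lower at day 7 than at day 3 and for 1 higher. Esam, an endothelial adhesion molecule (chromosome 9, 37528078 to 37538319, plus strand), stood at 67.3, 64.0 and 69.6 CPM with Erg and 0.283, 0.136 and 0.127 CPM in control (log2 change 8.54 ± 0.30, SE, adjusted p = 2.94e-14). Cdh5, the cadherin of endothelial adherens junctions (chromosome 8, 104101625 to 104144511, plus strand), stood at 4.76, 3.86 and 3.87 CPM with Erg and 0.0567, 0.273 and 0.127 CPM in control (log2 change 4.68 ± 0.46, SE, adjusted p = 7.23e-08). Gja5, an arterial connexin, stood at 1.43, 1.47 and 1.16 against 0.227, 0 and 0 CPM (log2 change 4.29), and Emcn, an endothelial sialomucin, at 6.47, 5.97 and 4.33 against 0.340, 0.318 and 0.423 CPM (log2 change 3.92). No Erg library overlapped a control library for these 4 genes, again without the share over all tested genes beside it.

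Several markers of mature endothelium were at a few CPM or less in both groups. Pecam1, a junctional adhesion molecule, stood at 2.03, 1.76 and 2.41 against 0.794, 1.18 and 0.804 CPM (log2 change 1.16 ± 0.21, SE) and Icam2 at 2.22, 1.57 and 2.32 against 0.737, 0.364 and 0.761 CPM (log2 change 1.73). Nos3, the endothelial nitric oxide synthase, stood at 0.462, 0.587 and 0.518 against 0, 0.0455 and 0.0423 CPM, a ratio of 16.5 (95% interval from counting, 4.26 to 141), and it overlaps Atg9b. Cldn5, the tight junction claudin of endothelium, had 4 counts over the 3 Erg libraries and 0 in control (adjusted p = 0.203). Vwf, the clotting factor carrier stored by endothelium, stood at 1.11, 0.880 and 1.16 against 1.30, 1.64 and 1.90 CPM and did not pass (adjusted p = 0.141). Cd34, Ly6c1, Jam2 and Ly6a, which fibroblasts also carry, fell by 1.70, 1.66, 1.47 and 1.36.

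**Figure D3:**
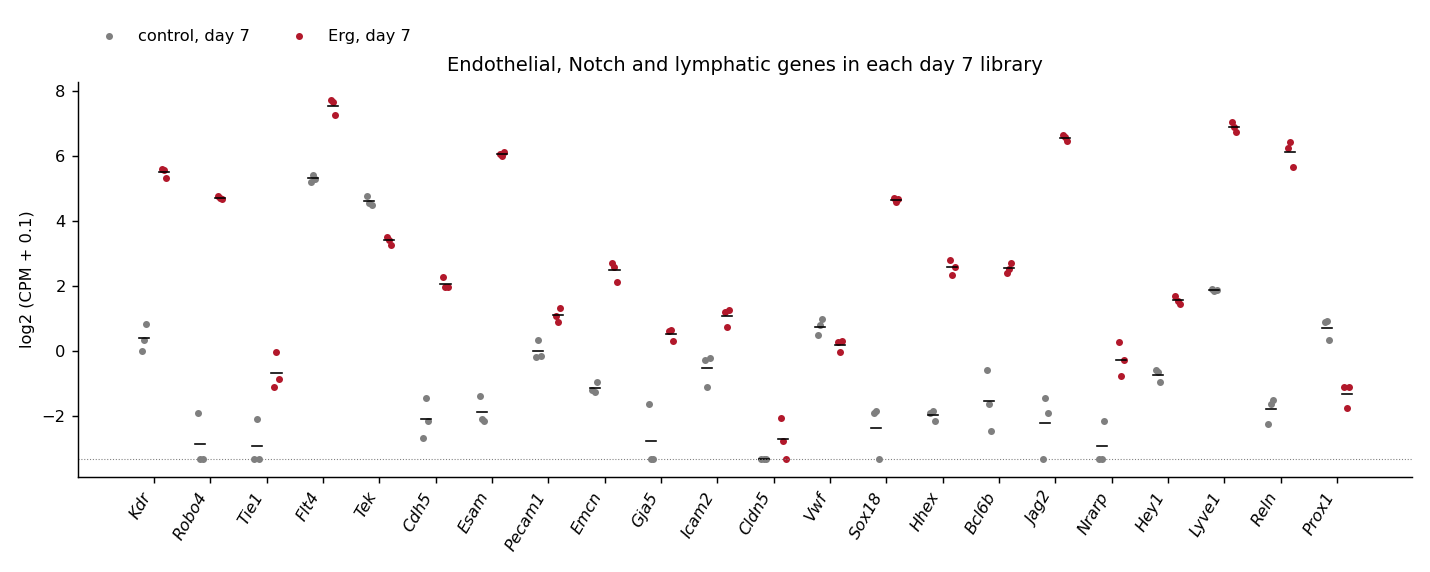
Points are single libraries at day 7, grey for control and red for Erg, as log2 of CPM + 0.1 on the y axis, black bars are means of the 3 points, and the dotted line marks 0 CPM. Kdr, Robo4, Esam, Sox18, Jag2, Lyve1 and Reln lie far above control in each Erg library, and Tek and Prox1 lie below it. Vwf also lies below control but did not pass the test, and Cldn5 overlaps with it.

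The 8 markers fixed for endothelium summed to 62.3 to 75.6 CPM with Erg and 27.7 to 30.7 CPM in control, with 5 members higher and 1 lower. Kdr carried the rise of that sum, since the other 7 summed to 26.3, 24.2 and 21.8 CPM with Erg and 29.8, 27.0 and 26.0 CPM in control. Fibroblast markers summed to 6663 to 7483 CPM against 14611 to 15978 CPM. Markers of other cell types moved beside the endothelial genes. The 10 macrophage markers summed to 731.7 to 760.2 CPM against 146.4 to 189.8 CPM, and the 3 smooth muscle markers to 476 to 530.4 CPM against 82.7 to 96.0 CPM. The 2 megakaryocyte markers summed to 9.20 to 11.3 CPM against 5.03 to 5.61 CPM, and the 3 neutrophil markers to 1.80 to 2.17 CPM against 0.170 to 0.409 CPM. The sum of the 2 cardiomyocyte markers was lower, at 9.29 to 12.3 CPM against 73.6 to 93.2 CPM. Of these, Tnnt2 was called lower and Myh6 was not tested. The sum of the 2 of mesothelium was also lower, at 7.28 to 7.76 CPM against 9.53 to 11.4 CPM. There Msln was called lower and Upk3b did not pass. The part of these cell types in the endothelial result was not tested. In bulk RNA, fewer cells of a type and less RNA per cell cannot be told apart.

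The 23 transcription factors of endothelium held 13 rises and 6 falls, and 4 did not pass (median 0.84). For 7 of the 23 the Erg effect was lower at day 7 than at day 3 and for 1 higher. Sox18, an F group SOX factor of vessels and lymphatics, stood at 26.0, 24 and 25.4 CPM with Erg and 0.170, 0.182 and 0 CPM in control (log2 change 7.76 ± 0.45, SE, adjusted p = 2.67e-11). Hhex, a homeobox factor of early endothelium, stood at 6.93, 4.99 and 5.88 against 0.170, 0.182 and 0.127 CPM (log2 change 5.19), and Bcl6b, a zinc finger repressor of endothelium, at 5.22, 5.67 and 6.49 against 0.567, 0.227 and 0.0846 CPM (log2 change 4.39). Tbx3, a T-box factor, stood at 24.4, 22 and 23.7 against 3.06, 3.00 and 3.30 CPM (log2 change 2.90), and its Erg effect was smaller at day 7 than at day 3, by −2.12 (adjusted p = 5.56e-06). Gata2, Klf2, Lyl1 and Tal1 rose by 1.41, 1.42, 2.07 and 1.29. The 6 falls included Prox1, Meox2 and Klf4 (−2.30, −1.83 and −1.07). Without replicate 1 of control or replicate 3 of Erg, 3 of the 6 were called.

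Other members of Erg's family went both ways. Of 20 tested ETS factors, Erg included, 5 rose, 9 fell and 6 did not pass (median −0.28). The falls were mostly within 2-fold, with Fli1, the closest relative of Erg, at 9.43 ± 0.253 against 18.2 ± 1.12 CPM (SD, n = 3, log2 change −0.95 ± 0.14, SE), Ets1 at −0.74, Elk3 at −1.02 and Etv1 at −1.04. In a test of changes beyond 1.5-fold, 3 were lower and 3 higher. Of all 14804 tested genes, 1421 were lower and 1746 higher in that test. Spi1 and Spic, ETS factors of macrophages, rose by 2.57 and 2.86, with Spi1 at 11.1, 9.59 and 9.90 against 1.47, 1.86 and 1.78 CPM. Spib, of B cells and dendritic cells, stood at 0, 0 and 0.0305 against 1.02, 1.14 and 0.761 CPM, with 1 against 61 counts. Etv2, the ETS factor of endothelial precursors, was among 6 members with too few counts to test.

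Of 17 genes listed as known targets of Erg in endothelium, 8 rose, 5 fell and 4 did not pass, with a median of 1.40, or 1.03 with Cldn5 at its bound. Besides those already described, Flt1, a receptor and trap of vascular growth factor, rose by 1.72, and Egfl7, a secreted endothelial protein, by 1.63. Dll4, the Notch ligand of arteries and tip cells, stood at 0.462, 0.147 and 0.0914 against 0, 0.136 and 0.0846 CPM, and the groups overlapped. Fzd4, a Wnt and norrin receptor, Rhoj, an endothelial GTPase, and Smad1 fell by 0.97, 0.83 and 0.78.

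Notch genes were led by one ligand. Jag2 (chromosome 12, 112907819 to 112929776, minus strand) stood at 101, 96.2 and 88.3 CPM with Erg and 0, 0.273 and 0.169 CPM in control (log2 change 9.20 ± 0.39, SE, adjusted p = 3.51e-13), whereas Jag1 stood at 86.5 ± 16.9 against 87.0 ± 8.21 CPM (SD, n = 3) and did not pass. Of 17 tested, 10 rose, 2 fell and 5 did not pass (median 0.81). Targets of the pathway were among the rises, with Hey1 at 3.19, 2.84 and 2.62 against 0.567, 0.545 and 0.423 CPM (log2 change 2.49), Hey2 at 1.55 and Nrarp at 1.11, 0.489 and 0.731 against 0, 0 and 0.127 CPM, a ratio of 16.3 (95% interval from counting, 5.32 to 81.5). The receptors differed from each other, since Notch3, of mural cells, rose by 1.34, Notch2 fell by 1.36 and Notch1 stood at 65.6 ± 13.2 against 63.9 ± 6.30 CPM. Lfng and Mfng, glycosyltransferases that tune Notch binding, stood at 24.8 ± 2.21 against 6.42 ± 0.610 CPM and 0.472 ± 0.111 against 0.0282 ± 0.0488 CPM (SD, n = 3) and both rose.

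Lymphatic genes were mixed. Reln, a large secreted glycoprotein made by lymphatic endothelium and neurons, stood at 76.8, 87.1 and 50.6 CPM with Erg and 0.113, 0.227 and 0.254 CPM in control (log2 change 8.41 ± 0.52, SE). Prox1, the factor that sets lymphatic identity, stood at 0.370, 0.196 and 0.366 against 1.76, 1.82 and 1.18 CPM (log2 change −2.30 ± 0.31, SE). Of the 9 tested, 4 rose and 2 fell, with 1 lower without replicate 1 or 3 of control or of Erg, under DESeq2, with RLE size factors or with no filter. Pdpn, which fibroblasts also express, stood at 283 ± 22.1 against 290.3 ± 16.1 CPM (SD, n = 3) and did not pass.

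Among 19 vascular ligands, 6 rose and 8 fell. Apln, the apelin peptide, stood at 298, 261 and 271 CPM with Erg and 6.46, 8.55 and 7.19 CPM in control (log2 change 5.22 ± 0.18, SE), and its effect was smaller at day 7 than at day 3, by −1.46 (adjusted p = 1.14e-04). Pdgfb, which endothelium uses to recruit mural cells, stood at 2.86, 1.86 and 2.10 against 0, 0.136 and 0.0423 CPM (log2 change 5.06), and Angpt2, the antagonist ligand of Tek, rose by 1.6. Ligands of the stroma were lower, with Hgf at 1.99, 4.30 and 2.68 against 21.4, 20.9 and 15.4 CPM (log2 change −2.69), Cxcl12 at 108, 106 and 111 against 479.5, 445 and 424 CPM (log2 change −2.05) and Vegfd at −1.72. Vegfa stood at 44.9 ± 2.49 against 44.1 ± 3.30 CPM (SD, n = 3) and did not pass.

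Of 26 guidance genes, 8 rose and 10 fell, with 5 higher without replicate 2 of control. Ephb1, an ephrin receptor, stood at 3.23, 2.93 and 2.96 against 0.0567, 0.0455 and 0.0423 CPM, a ratio of 63.9 (95% interval from counting, 21.6 to 312), and Slit3, a ligand of Robo receptors, fell by 2.42. Epha7 and Epha3 fell by 2.28 and 2.21. Of 17 coagulation genes, 8 rose and 4 fell, a count of rises that lay at 4 or 5 without any 1 of replicates 1, 2 and 3 of control or replicate 2 of Erg. Plaur, the urokinase receptor, stood at 38, 37.3 and 35.9 against 3.46, 4.27 and 3.38 CPM (log2 change 3.32), and F3, tissue factor, at 13.1, 13.3 and 10.8 against 38.3, 34.0 and 34.6 CPM (log2 change −1.52).

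The promoters of 3 risen endothelial genes are shown, because Erg binds a GGAA core and the motif letters can be read beside the changes. They are the 250 bases before the RefSeq start (GRCm38.p6), 5′ to 3′ on the gene's strand, with matches to CGGAAG or AGGAAG on either strand in capitals. Of 83 called members of the endothelial, ETS, Notch and lymphatic lists, 58 had a promoter in that table and 32 of these genes held a match in any of their promoters, 55.2%, as did 50.4% of all tested genes with a promoter.
Robo4, chr9:37401722-37401971, plus strand: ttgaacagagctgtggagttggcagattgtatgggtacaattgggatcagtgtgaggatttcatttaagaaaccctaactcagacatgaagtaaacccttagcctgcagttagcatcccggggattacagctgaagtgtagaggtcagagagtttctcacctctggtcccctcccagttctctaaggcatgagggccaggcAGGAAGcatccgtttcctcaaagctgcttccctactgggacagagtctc
Emcn, chr3:137340828-137341077, plus strand: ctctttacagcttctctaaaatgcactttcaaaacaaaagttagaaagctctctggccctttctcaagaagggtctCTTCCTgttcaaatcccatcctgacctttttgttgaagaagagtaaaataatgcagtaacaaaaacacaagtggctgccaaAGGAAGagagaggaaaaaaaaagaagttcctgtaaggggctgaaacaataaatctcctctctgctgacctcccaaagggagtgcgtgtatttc
Kdr, chr5:75978456-75978705, minus strand: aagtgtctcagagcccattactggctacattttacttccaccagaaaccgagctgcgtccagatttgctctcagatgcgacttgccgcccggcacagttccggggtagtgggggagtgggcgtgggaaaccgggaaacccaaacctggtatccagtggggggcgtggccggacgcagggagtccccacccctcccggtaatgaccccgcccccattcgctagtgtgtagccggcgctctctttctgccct

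Robo4 held 1 AGGAAG, whose first base is 49 bases before the RefSeq start. The RefSeq start of Robo4 lies downstream of the GENCODE gene start given above, so this match lies inside the GENCODE gene. Emcn held 2 AGGAAG matches, 1 on each strand, whose first bases are 174 and 93 bases before the start. Kdr held neither 6-letter motif in this window, which says only that these letters are not there. Counted by promoter, over all 32851 promoters of the table, 13.6% held CGGAAG, 29.5% held AGGAAG and 39.2% held either. Among promoters of tested genes these shares were 22.7%, 28.3% and 44.9%. Promoters of genes called higher held either motif in 42.5% of cases, those of genes called lower in 44.1% and those of genes that did not pass in 46.4%. A match is a description of the letters and not a binding site.

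The Erg levels were set beside those of the other conditions at day 7. Of all tested genes, 24.8% were higher with Erg than in SEG and 24.7% lower, and 25.9% were higher with Erg than with Sox17. Of the 25 endothelial receptors, 8 were higher with Erg than in SEG and 13 lower, and of 26 junction and surface genes 9 were higher and 16 lower. Cdh5 in SEG stood at 727, 967 and 1010.0 CPM, a log2 difference, Erg minus SEG, of −7.76 (adjusted p = 8.96e-14). Tie1 in SEG stood at 542, 528 and 528 CPM and Pecam1 at 186, 199 and 216 CPM, with differences of −9.90 (adjusted p = 2.29e-15) and −6.58 (adjusted p = 3.03e-16). Gja5 stood at 901, 848 and 875 CPM in SEG and 84.8, 61.0 and 68.1 CPM with Sox17. Without the 2 outlying libraries, 1 of SEG and 1 of Sox17, the differences were −7.89, −9.89 and −6.60 for Cdh5, Tie1 and Pecam1, and 8 receptors were higher and 14 lower than in SEG. Among all 15003 genes tested in that setting, 5220 were higher with Erg than in SEG and 5005 lower.

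A second set of vessel genes was higher with Erg than in SEG. Esam stood at 24.2, 18.9 and 18.6 CPM in SEG, a difference of 1.71 (adjusted p = 1.33e-07), and Jag2 at 14, 16.1 and 16.3 CPM, a difference of 2.62 (adjusted p = 1.55e-08). Lyve1 and Apln in SEG stood at 7.46, 11.4 and 11.5 and 1.39, 1.23 and 1.83 CPM, with differences of 3.57 (adjusted p = 5.31e-10) and 7.53 (adjusted p = 3.82e-16). Sox18 stood at 6.50, 6.52 and 7.66 CPM in SEG and 0.159, 0.0546 and 0 CPM with Sox17. Erg itself was higher with Erg than in SEG, by 2.42 (adjusted p = 3.29e-09). Erg minus Sox17 was −1.68 (adjusted p = 2.75e-05) for Kdr and 6.54 (adjusted p = 4.03e-12) for Robo4. Without the 2 outlying libraries these differences were 1.85 for Esam, 2.56 for Jag2, 3.4 for Lyve1, 7.5 for Apln and 2.34 for Erg against SEG, and −2.03 for Kdr and 6.24 for Robo4 against Sox17.

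**Figure D4:**
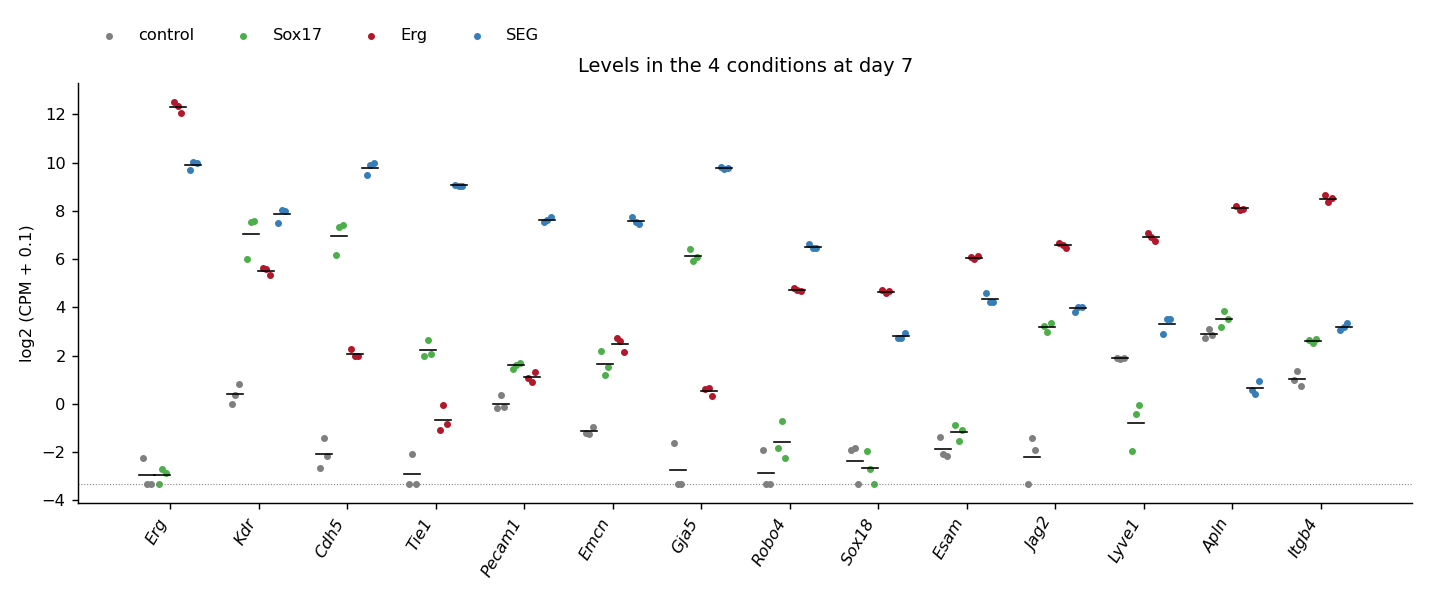
Points are single libraries at day 7 in control (grey), Sox17 (green), Erg (red) and SEG (blue), as log2 of CPM + 0.1, with black bars at the means and the dotted line at 0 CPM. Cdh5, Tie1, Pecam1, Emcn and Gja5 are highest in SEG, while Esam, Sox18, Jag2, Lyve1, Apln and Itgb4 are highest with Erg.

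Integrins were near the background, with 5 of 19 tested higher and 6 lower, and some of the rises were large. Itgb4, the laminin binding subunit of epithelia and vessels (chromosome 11, 115974709 to 116008412, plus strand), stood at 401, 333 and 367 CPM with Erg and 1.87, 2.45 and 1.57 CPM in control (log2 change 7.54 ± 0.14, SE, adjusted p = 1.83e-18), and the groups were far apart in every library. Itgb7, of leukocytes, stood at 10.3, 9.34 and 10.1 against 0.113, 0.182 and 0.0423 CPM (log2 change 6.42), Itga7, a laminin receptor of muscle, at 101, 87.6 and 88.3 against 6.92, 8.50 and 8.80 CPM (log2 change 3.51) and Itgb3 at 168, 161 and 154 against 28.1, 27.7 and 31.8 CPM (log2 change 2.46). Itgb1, the shared beta chain, stood at 1602 ± 71.4 against 1626 ± 17.8 CPM (SD, n = 3) and did not pass. Among 18 basement membrane genes, Lama5 and Nid2 rose by 2.59 and 1.85, and 6 fell, with Col18a1 at −1.49 and Lama2 at −1.12.

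Fibroblast genes were lower with Erg and remained abundant. Of 33 genes, 24 fell, 3 rose and 6 did not pass (median −1.01), and the list summed to 18414 to 18723 CPM with Erg against 41812 to 44743 CPM in control. Pdgfra stood at 205, 239 and 187 CPM with Erg and 850.3, 813 and 739 CPM in control (log2 change −1.93 ± 0.25, SE). Tcf21, a factor of heart fibroblasts, stood at 124, 122 and 132 against 356, 341 and 302 CPM (log2 change −1.40), and Fbln1, a matrix glycoprotein, at 34.7, 32.7 and 35.1 against 384, 302 and 296 CPM (log2 change −3.26). Vim, an intermediate filament of mesenchyme, at 3766 ± 378 against 4315 ± 96.1 CPM, Ddr2, a collagen receptor, at 329.7 ± 55.0 against 401 ± 10.8 CPM, and Postn, a matrix protein of activated fibroblasts, at 1375 ± 91.2 against 1600.3 ± 44.7 CPM (SD, n = 3) did not pass. Without the 2 outlying day 7 libraries of the other conditions Ddr2 was called lower, at a log2 change of −0.24. Wt1, a factor of epicardium, went up from near 0, at 6.93, 8.36 and 8.50 against 0.227, 0.318 and 0.381 CPM (log2 change 4.64 ± 0.42, SE), and Meox1 and Fap, both found in activated fibroblasts, rose by 2.65 and 1.64.

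Fibrillar collagens were also lower. Col1a1 stood at 3175, 3556 and 3210.0 CPM with Erg and 7861, 7971 and 7497 CPM in control (log2 change −1.23) and Col3a1 at 2215, 2508 and 2171 against 5003, 4737 and 4369 CPM (log2 change −1.03). Of 27 collagen genes and their enzymes, 16 fell and 9 rose (median −0.69). The crosslinking enzymes Loxl1 and Loxl4 fell by 1.62 and 1.55, whereas the prolyl hydroxylases P4ha2 and P4ha3 rose, at 188, 163 and 195 against 54.3, 52.9 and 56.1 CPM (1.74) and 111, 102 and 85.0 against 32.4, 30.8 and 32.6 CPM (1.64). Col6a3, of microfibrillar collagen, rose by 1.18. Small leucine-rich proteoglycans were also mostly lower, 7 of 10 lower (median −1.24), with Bgn, biglycan, at 4043, 3928 and 3878 against 11771, 11536 and 10935 CPM (log2 change −1.53) and Lum, lumican, at 52.9, 57.6 and 58.9 against 256, 194 and 204 CPM (log2 change −1.95). Aspn and Ogn fell by 2.48 and 1.82, and both overlap Cenpp. The 1 member called higher was lost without replicate 2 or 3 of control or replicate 1 or 3 of Erg.

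Most of the listed matrix proteases fell, and a pair of their inhibitors rose. Of 25 genes, 15 fell and 7 rose (median −0.79). Timp3, the matrix bound inhibitor of metalloproteases, stood at 3829, 3632 and 3279.7 CPM with Erg and 320.1, 297 and 281 CPM in control (log2 change 3.58 ± 0.20, SE, adjusted p = 1.39e-11), and Timp4 at 38.8, 31.9 and 36.4 against 1.25, 1.09 and 0.973 CPM (log2 change 5.02), though each overlaps another annotated gene, Syn3 and Syn2. Timp1 and Timp2 went down, by −0.68 and −0.59. Mmp2, a gelatinase of fibroblasts, and Mmp3, stromelysin, fell by 1.83 and 1.6. Mmp12, the macrophage elastase, rose by 2.92.

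Cartilage and bone genes leaned down, 10 of 17 lower and 3 higher (median −1.32), with Alpl, alkaline phosphatase, at 2.73, 2.93 and 3.11 against 23.1, 27.3 and 19.0 CPM (log2 change −2.98). Acan, the cartilage proteoglycan aggrecan, stood at 0.554, 1.37 and 0.823 against 0.0567, 0.0909 and 0 CPM, a ratio of 18.9 (95% interval from counting, 6.18 to 93.8). Of 14 mesenchymal factors and cadherins, 8 fell and 1 rose (median −0.76), with 2 higher without replicate 1 of control. Snai2, a factor of mesenchymal transition, stood at 19.9, 19.0 and 19.1 against 54.7, 53 and 50.0 CPM (log2 change −1.44), and the cadherins Cdh2 and Cdh11 fell by 1.40 and 1.42.

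Contractile genes split between smooth muscle markers and the rest. Tagln stood at 268, 269 and 263 against 24.3, 24.2 and 30.2 CPM (log2 change 3.35 ± 0.23, SE), Acta2, smooth muscle actin, at 202, 253 and 245 against 70.5, 58.3 and 65.5 CPM (log2 change 1.85 ± 0.18, SE), and Myh11, smooth muscle myosin, at 5.96, 7.73 and 5.70 against 0.113, 0.273 and 0.254 CPM (log2 change 4.84 ± 0.30, SE). Of 20 contractile genes these and 3 others rose and 2 fell, with 1 lower without replicate 1 or 2 of control or replicate 1 or 3 of Erg. The 12 that did not pass included Cald1 at 462 ± 49.6 against 568 ± 14.1 CPM and Myocd, a coactivator of the smooth muscle programme, at 0.415 ± 0.153 against 0.459 ± 0.188 CPM (SD, n = 3). Acta2 had gone the other way at day 3, with a log2 change of −1.02, and its effect differed between the days by 2.87 (adjusted p = 1.36e-07). The pericyte marker Rgs5 stood at 3.42, 2.74 and 1.89 against 2.21, 1.73 and 3.00 CPM and did not pass (adjusted p = 0.67). Tagln overlaps Pcsk7.

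In the TGF-beta pathway, a pair of receptors fell and the targets named here went both ways. Tgfbr2, its signalling receptor, stood at 146, 153 and 131 CPM with Erg and 626, 627 and 563 CPM in control (log2 change −2.08 ± 0.22, SE, adjusted p = 2.13e-07), and the coreceptor Tgfbr3 at 54.3, 65.6 and 48.0 against 206, 201 and 184 CPM (log2 change −1.82). Of 19 genes, 10 fell and 6 rose. Ccn2, a matricellular target, rose by 0.43, and Tgfbi, a secreted matrix target, fell to 22.3, 22.4 and 32.1 against 119, 116 and 125 CPM (log2 change −2.23).

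Other signalling lists had members on both sides. Of 21 BMP genes, 8 rose and 7 fell, with the ligand Bmp2 at 7.44, 9.83 and 6.86 against 1.19, 1.45 and 1.99 CPM (log2 change 2.36), the antagonist Nog, noggin, at 3.33, 3.57 and 4.08 against 0.113, 0.136 and 0.212 CPM (log2 change 4.50) and the antagonist Grem1 at −2.30. Of 18 FGF genes, 5 rose and 6 fell, with the receptor Fgfr3 at 33.6, 30.6 and 27.9 against 1.30, 1.0 and 1.14 CPM (log2 change 4.74) and the feedback phosphatase Dusp6 at 139.6, 129 and 120.2 against 33.3, 33.9 and 43.8 CPM (log2 change 1.81). Of 23 Wnt genes, 7 rose and 6 fell. Beside Wnt9b, the ligands Wnt2 and Wnt6 rose by 4.48 and 3.59, and the antagonist Sfrp1 stood at 86.4, 108 and 82.0 against 808, 713 and 644 CPM (log2 change −2.97). Of 10 genes of the insulin-like growth factor system, 3 rose and 5 fell. Igfbp6, a binding protein with a preference for IGF2, stood at 1048, 869 and 1069 against 71.5, 67.8 and 65.6 CPM (log2 change 3.86), and the ligand Igf1 at 10.8, 15.4 and 11.6 against 65.0, 51.7 and 48.4 CPM (log2 change −2.13).

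Every tested gene of sterol and fatty acid synthesis fell, 27 of 27, with a median of −1.6 and a range from −3.21 to −0.56. These genes are driven by the SREBP factors when cells are short of sterol. Scd1, a fatty acid desaturase, stood at 77.2, 81.5 and 75 against 490.4, 449 and 391 CPM (log2 change −2.51), and Hmgcs1, an early enzyme of sterol synthesis, at 49.9, 64.9 and 55.8 against 281, 271 and 225 CPM (log2 change −2.19). The factors Srebf2 and Srebf1 fell by 0.86 and 0.56. The Erg effect was lower at day 7 than at day 3 for 25 of the 27, against 10.4% of all tested genes. At day 3 the median was −0.70, with 22 called lower and 1 higher, against 23.5% and 22.6% of all tested genes. Abcg1, a sterol exporter, stood at 50.0, 45.3 and 44.7 against 10.04, 9.41 and 10.03 CPM (log2 change 2.25), and the 4 falls among 10 efflux and transport genes included Pltp and Npc2 (−1.10 and −0.75).

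Of 19 adipogenic and lipid storage genes, 6 rose and 8 fell, with Plin4, a lipid droplet protein, at 17.0, 15.9 and 16.1 against 89.0, 84.8 and 84.1 CPM (log2 change −2.39) and Cd36, a fatty acid receptor that macrophages share, at 12, 17.0 and 13.8 against 3.46, 3.32 and 3.89 CPM (log2 change 2.0). Respiratory chain genes moved by small amounts, 12 of 30 higher and 0 lower (median 0.39) by edgeR's test. At an unadjusted p under 0.05 16 were higher and 0 lower, and DESeq2 also called 0 lower. Without replicate 3 of Erg 6 were called higher, and in the test beyond 1.5-fold 0 were. Of 20 glycolysis genes, 8 rose and 6 fell, with 4 and 5 rises without replicate 3 of Erg and without replicate 1 of control. Gapdh stood at 2370.2, 2062 and 2675 against 1004, 1064 and 1008 CPM (log2 change 1.21) and Hk2, hexokinase, at 21.0, 22.1 and 18.9 against 38.5, 41.4 and 39.3 CPM (log2 change −0.94).

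Targets of NRF2, the factor of the oxidant response, were mostly higher, 11 of 16 with 2 lower (median 0.82). Srxn1, sulfiredoxin, stood at 174, 158 and 169 against 55.7, 59.5 and 59.1 CPM (log2 change 1.52), and Gclm, a subunit of the enzyme that starts glutathione synthesis, at 149.8, 154 and 141 against 59.2, 62.0 and 59.9 CPM (log2 change 1.30). Nqo1, a classical target, stood at 9.72 ± 0.982 against 9.89 ± 1.13 CPM (SD, n = 3) and did not pass. Stress genes of the ATF4 pathway leaned down, 10 of 20 lower and 4 higher, with Trib3 at 11.2, 9.44 and 12.2 against 22.5, 26.2 and 29.6 CPM (log2 change −1.25), while Phgdh, of serine synthesis, rose by 1.34. Without replicate 1 of control 2 were higher. Of 17 endoplasmic reticulum chaperones, 2 rose and 4 fell, with Calr, calreticulin, at −0.34 and Hyou1 at 0.30. Of 16 hypoxia genes, 4 rose and 5 fell, with 2 rises without replicate 3 of control, and Ndrg1 stood at 119, 104 and 115 against 18.2, 17.7 and 17.2 CPM (log2 change 2.67).

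Cell cycle genes were modestly higher at day 7. Of 33, 20 rose, 0 fell and 13 did not pass by edgeR's test (median 0.48). At an unadjusted p under 0.05 21 were higher and 0 lower. DESeq2 also called 0 lower, and 1 was lower without the 2 outlying libraries. Pcna, the sliding clamp of replication, stood at 107, 108 and 128 CPM with Erg and 49.4, 48.6 and 50.7 CPM in control (log2 change 1.20 ± 0.08, SE, adjusted p = 1.67e-10), Mcm5, of the replicative helicase, at 18.9, 19.7 and 20.6 against 8.33, 9.64 and 10.2 CPM (log2 change 1.07), and Ccne2, cyclin E2, at 5.78, 6.95 and 5.33 against 1.70, 2.0 and 2.62 CPM (log2 change 1.5). Mki67, a proliferation marker, stood at 18.5 ± 4.20 against 15 ± 3.43 CPM and Top2a, of chromosome segregation, at 47.7 ± 4.99 against 36.8 ± 6.20 CPM (SD, n = 3), and neither passed. In the test beyond 1.5-fold 7 of the list were higher, as were 1746 of all 14804 tested genes. At day 3 the same list had a median of −1.42 with 30 lower and 2 higher, against 23.5% lower and 22.6% higher among all tested genes at day 3. The effect was higher at day 7 than at day 3 for all 33, against 9.34% of all tested genes.

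Levels at day 3 stand beside those values. Pcna stood at 99.2, 105 and 104 CPM in control and 128, 126 and 137 CPM with Erg at day 3. Mcm5 in control stood at 42.3, 45.8 and 48.0 CPM at day 3 and with Erg at 26.3, 24.1 and 25.4 CPM. Ccnd1, the cyclin of early cycle entry, stood at 2125, 1967 and 2009.7 against 596, 660.2 and 713 CPM at day 7 (log2 change 1.63 ± 0.08, SE), and a difference of its effect between the days did not pass, at −0.10 (adjusted p = 0.597). The inhibitors Cdkn1a, p21, and Cdkn1b, p27, stood at 669, 591 and 658 against 369.8, 386 and 375 CPM (log2 change 0.76) and 46.7, 45.9 and 43.9 against 69.1, 69.3 and 63.5 CPM (log2 change −0.57). Of 20 p53 targets, 8 rose and 3 fell, led by Perp, a membrane protein of epithelia (log2 change 2.20), and the death factor Pmaip1 (log2 change 2.03).

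**Figure D5:**
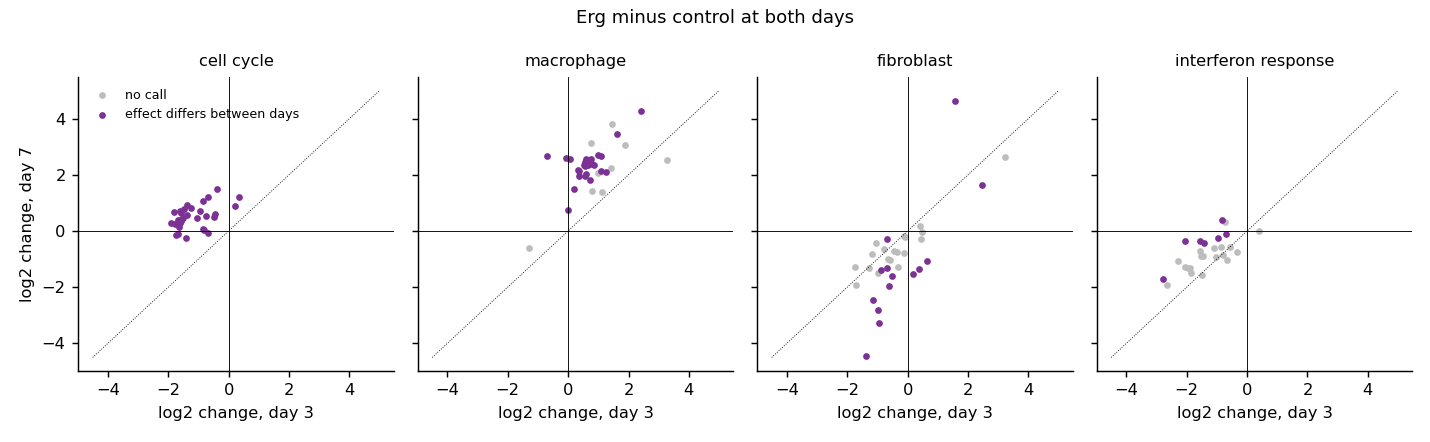
Each point is a tested gene of the cell cycle, macrophage, fibroblast or interferon list, with its log2 change, Erg minus control, at day 3 on the x axis and at day 7 on the y axis; the dotted line is equal change, and purple marks a called difference between the days. All 33 cell cycle genes lie above the line and are purple, 28 of 37 macrophage genes are purple above it, and most interferon genes lie in the lower left at both days.

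Interferon response genes were lower, 14 of 26 with 0 higher and 12 not passed by edgeR's test (median −0.79). At an unadjusted p under 0.05 15 were lower and 0 higher, and DESeq2 called 1 higher. Ifi44 stood at 57.0, 55.6 and 45.5 against 204, 211 and 184 CPM (log2 change −1.93 ± 0.40, SE), Irf7, a factor that amplifies the response, at 292, 266 and 256 against 816, 828 and 779 CPM (log2 change −1.57 ± 0.34, SE), and Oas2, a sensor of foreign RNA, at 14.4, 15 and 13.1 against 46.8, 41.6 and 50.5 CPM (log2 change −1.71 ± 0.24, SE). Rsad2, Mx2 and Isg15 stood at 71.7 ± 12.2 against 57.2 ± 2.38 CPM, 22 ± 1.67 against 16.6 ± 1.04 CPM and 149.9 ± 11.3 against 193 ± 16.5 CPM (SD, n = 3) and did not pass. In the test beyond 1.5-fold 8 were lower, as were 1421 of all 14804 tested genes. For 7 of the 26 the effect was higher at day 7 than at day 3, against 9.34% of all tested genes. At day 3 the median was −1.45 with 21 lower, against 23.5% of all tested genes.

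Of 17 antigen presentation genes 5 were lower, near the background share, and 2 higher, with 1 higher without replicate 2 or 3 of control or replicate 3 of Erg. The class I chains H2-K1 and H2-D1, which share sequence with their relatives so that counts may be split between them, stood at 995, 1004 and 1080.3 against 2757, 2815 and 2612 CPM (log2 change −1.41) and 1424, 1344 and 1435 against 3157, 3142 and 2924 CPM (log2 change −1.13), and their partner B2m at 1831, 1875 and 1965 against 3694, 3588 and 3509 CPM (log2 change −0.93). All 3 passed the test. The rise of Cd86, a costimulatory protein of antigen presenting cells, was by 4.01, at 1.20, 1.42 and 1.37 against 0, 0.136 and 0.0846 CPM. Complement genes went both ways. C3, the central component, stood at 296, 307 and 278 against 2776, 2325 and 2211 CPM (log2 change −3.05) and Cfb, of the alternative pathway, at 16.2, 14.9 and 15.6 against 99.1, 86.9 and 78.3 CPM (log2 change −2.50). C5ar1, a receptor of myeloid cells, stood at 11.2, 14.1 and 12.3 against 2.83, 1.73 and 2.24 CPM (log2 change 2.47). In all 8 complement genes rose, among them C1qa, C1qb and C1qc, and 8 fell.

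Of 27 inflammatory genes, 9 rose and 11 fell. The chemokines Ccl3 and Ccl4, made by macrophages, rose by 2.32 and 3.15, Ccl5 stood at 1.62, 1.57 and 2.50 against 9.07, 10.5 and 10.3 CPM (log2 change −2.38), and Ptgs2, the inducible cyclooxygenase, at 33.3, 39.5 and 35.4 against 8.28, 7.55 and 7.83 CPM (log2 change 2.19). Immediate early genes went both ways, 4 higher and 9 lower of 17. Jun stood at 115, 118 and 115 against 38, 44.5 and 43.5 CPM (log2 change 1.47), its partner Fos at 34.8, 40.2 and 35.2 against 90.2, 93.3 and 105 CPM (log2 change −1.39) and Nr4a1, an early response receptor, at 7.39, 10.6 and 8.84 against 23.9, 23.0 and 27.6 CPM (log2 change −1.48). In the test beyond 1.5-fold 3 were lower, as were 1421 of all 14804 tested genes. At least 3 of the list were called higher under every setting.

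Macrophage genes rose as a body. Of 37 tested, 36 rose and 1 fell (median 2.35), and the list summed to 1220 to 1307 CPM with Erg and 252 to 309 CPM in control. C1qa, a subunit of complement C1q, stood at 91.8, 93.7 and 92.9 CPM with Erg and 20.7, 15.1 and 19.5 CPM in control (log2 change 2.33 ± 0.28, SE, adjusted p = 7.64e-07). Csf1r, the receptor of the macrophage growth factor, stood at 34.0, 35.2 and 32.4 against 6.86, 7.32 and 8.21 CPM (log2 change 2.18), Adgre1, the antigen F4/80, at 19.5, 18.1 and 15.6 against 5.44, 3.27 and 4.23 CPM (log2 change 2.04), and Lyz2, lysozyme, at 363, 376 and 365 against 97.9, 79.2 and 108 CPM (log2 change 1.95). Marco, a scavenger receptor, had the largest change of the list, at 23.6, 23.3 and 25.8 against 1.30, 1.27 and 1.14 CPM (log2 change 4.29 ± 0.29, SE). The exception was Cd14, at 2.22, 3.23 and 2.44 against 5.16, 3.55 and 3.26 CPM (log2 change −0.60), whose call was lost without replicate 1 of control or replicate 1 or 3 of Erg, with no filter and beyond 1.5-fold. Timd4 was at 0 in all 6 libraries. No Erg library overlapped a control library for C1qa, Csf1r, Adgre1, Lyz2 or Marco, and the share over all tested genes is not given here.

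The Erg effect on macrophage genes was smaller at day 3. The list had a median of 0.71 then, with 20 higher and 1 lower, where 22.6% of all tested genes were higher and 23.5% lower at day 3. The effect was higher at day 7 for 28, against 9.34% of all tested genes. Csf1r differed between the days by 1.86 (adjusted p = 7.44e-06) and Mrc1, the mannose receptor, by 1.48 (adjusted p = 0.00136). At day 7, 32 of the 37 were higher with Erg than in SEG and 35 higher than with Sox17, against 24.8% and 25.9% of all tested genes. Csf1r overlaps Hmgxb3 and Cx3cr1 overlaps other genes.

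Genes of other blood cells had low counts. Of 11 tested leukocyte genes 4 rose and 2 fell, with 1 lower without replicate 1 or 3 of control or of Erg, and the list summed to 8.36 to 8.66 CPM with Erg and 5.95 to 7.26 CPM in control. Cd3e of T cells was at 0 in all 6 libraries, and S100a8 of neutrophils stood at 1.71, 1.08 and 1.40 against 0.0567, 0.0909 and 0.0423 CPM (log2 change 4.36). Of 12 megakaryocyte and blood stem cell genes, 5 rose and 1 fell. Itga2b, a platelet integrin, stood at 4.71, 3.82 and 5.12 against 1.70, 1.55 and 1.90 CPM (log2 change 1.41), and Gp6, the platelet collagen receptor, at 0.693, 0.880 and 0.701 against 0, 0 and 0 CPM, at least 15.8-fold higher. Kit, the receptor of stem cell factor, stood at 0.785, 0.391 and 0.427 against 4.08, 3.32 and 3.98 CPM (log2 change −2.83).

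Of 7 tested heart muscle genes, 1 rose and 1 fell, with 3 higher without replicate 2 of Erg and 2 without replicate 3 of control. Tnnt2, cardiac troponin T, stood at 8.64, 9.88 and 12.2 against 82.2, 73.5 and 93.2 CPM (log2 change −3.01 ± 0.33, SE), Myh6 was at or under 0.647 CPM in every library, and Mybpc3 stood at 1.71, 1.12 and 1.68 against 0.113, 0.273 and 0.296 CPM (log2 change 2.66). Upk3b of mesothelium stood at 2.86, 2.64 and 2.56 against 2.72, 2.77 and 2.88 CPM and did not pass (adjusted p = 0.816), and Msln fell by 0.73. Lysosomal genes, in which macrophages are rich, showed 7 higher and 6 lower of 29, with Ctss, a protease of antigen presenting cells, at 51.9, 58.6 and 51.8 against 14.2, 12.7 and 14.6 CPM (log2 change 1.97), Ctsd at 8049, 7150.3 and 8849 against 3424, 3299 and 3274 CPM (log2 change 1.27) and Ctsk, a collagen degrading protease that fibroblasts share, at 70.3, 78.8 and 87.0 against 197, 194 and 203 CPM (log2 change −1.33).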

How the data were processed

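The authors deposited a table of whole-number counts per Ensembl gene, 35727 genes in 24 libraries; Salmon, DESeq2 and the build mm10 are named per the submitters' processing notes, with their order, versions, annotation, strand use and rounding not given in the sources used here. RNA was prepared with an RNeasy kit and sequenced as mRNA, per the labels' protocols. Salmon splits reads between similar genes, so genes with near copies, such as the H2 family, are uncertain.

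Counts were fitted with edgeR 4.0.16 (quasi-likelihood test, TMM, R 4.3.3, limma 3.58.1), with 8 group means over all 24 libraries. The filter filterByExpr, at its minimum count of 10, left 14804 genes. Calls needed a Benjamini-Hochberg adjusted p below 0.05 over all genes tested, and the SE is the size of the log2 change over the square root of F. CPM are relative to TMM-scaled library sizes. A group at 0 counts was set at a floor of 3 counts over its 3 libraries. With 1 to 3 counts a ratio has a 95% interval, and floors and intervals cover counting error only. The 4 comparisons were Erg against control at day 7, the difference of that effect from day 3, and Erg against Sox17 and against SEG at day 7. Gene lists were counted, and no set test was run.

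Named genes were Erg and Sox17, the 15 largest rises and 15 largest falls at 10 CPM or more in the higher group without overlap between libraries and without predicted names, up to 4 called members of each of 49 gene lists, and cell type markers. The lists and genes were chosen with earlier results of these data known. Genes named beyond this rule were chosen after their values were seen, and a few named genes are not reported here. Gene coordinates are from GENCODE vM21 (mm10) and promoters from RefSeq (GRCm38.p6). On simulated data for Erg against control at day 7, 82 of 100 2-fold and 98 of 100 4-fold changes were recovered. There were 6 false calls, and 14377 genes were tested, those with a planted change included. Changes were planted only in genes above a minimum mean count. All groups otherwise shared 1 mean, and the spread followed the dispersion trend, with no outlying library. The real comparison called far more genes, so these figures do not give its power or its error. Alternatives were DESeq2 1.42.0, RLE size factors, no filter, a replicate block, a test beyond 1.5-fold, a fit of only the groups compared, and leaving out each library or both outlying ones. No pair of libraries agreed within sampling noise.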

Additional observations from a re-analysis of the deposited data

Results flagged for a closer look

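The Erg effect differed between the days for many genes. By edgeR's test of the difference itself, the log2 change of Erg against control was higher at day 7 than at day 3 for 1383 genes and lower for 1533, each day with its own control libraries. Among 240 named genes tested, 109 had such a difference. Most genes called at both days moved one way, 4348 of them, while 210 were higher at day 7 and lower at day 3 and 149 were the reverse.

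Among the named genes, 10 had called changes of opposite direction at the 2 days and a called difference. The contractile genes Actg2, Myl9 and Acta2 changed by −1.52, −0.90 and −1.02 at day 3 and by 3.45, 2.44 and 1.85 at day 7, differences of 4.97, 3.35 and 2.87 on the log2 scale. The replication genes Cdc45 and Mcm5 changed by −0.68 and −0.85 at day 3 and by 1.21 and 1.07 at day 7, differences of 1.89 and 1.91. Pf4, a platelet and macrophage chemokine, went from −0.51 to 0.74, a difference of 1.25.

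For the other 4 genes the log2 change of Erg against control was lower at day 7 than at day 3, which does not give the direction of the level itself. With Erg, the levels of Igfbp5, Dcn and Pltp were lower in every day 7 library than in every day 3 library. That of H2-D1 was higher in every day 7 library. These changes of level between the days were not tested. Igfbp5, which binds insulin-like growth factors, changed by 3.68 at day 3 and −1.31 at day 7, a difference of −4.99. Dcn, the proteoglycan decorin, went from 0.66 to −1.05 (−1.71), Pltp, the phospholipid transfer protein, from 0.43 to −1.10 (−1.53) and H2-D1, an MHC class I chain, from 0.68 to −1.13 (−1.82).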

How the results depend on the processing

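Counts of calls moved by over 1.5 times under 4 settings. In a test of changes beyond 1.5-fold, 1746 genes were higher and 1421 lower with Erg than in control at day 7, the Erg effect was higher at day 7 than at day 3 for 416 genes and lower for 398, 2184 were higher and 2077 lower with Erg than with Sox17, and 1955 were higher and 1595 lower with Erg than in SEG. Without the 2 outlying day 7 libraries, 5287 genes were higher with Erg than in control, and the day difference counted 3287 higher and 3306 lower. A fit of only the groups compared gave 3114 and 3328 for the day difference and 2425 and 2348 against Sox17. The replicate block in that fit gave 3062 and 3342 for the day difference and 1835 and 1547 against Sox17. The first setting has a stricter null and the others use fewer samples, but the cause of the moved counts was not tested.

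Erg against control at day 7 gave 3883 and 3534 calls by DESeq2, 3756 and 3391 with RLE size factors, 3697 and 3079 without a filter, and, leaving out 1 library at a time, 3012 to 3341 higher and 3059 to 3405 lower. The replicate block gave 3504 and 3663. Deviations from the group means correlated by 0.0149, 0.0301 and 0.0613 between Erg and control libraries of the same number. Between those of different numbers the values ran from −0.06 to 0.0284. So few values cannot decide whether the numbers mark a pairing. Of 232 named genes called, 221 were tested under all 14 settings and 203 of these were called in the same direction under each. Beyond 1.5-fold 19 of the 232 were lost. Leaving out 1 library lost F10, Cox4i1, Bax and Car12, and Cd14, which lies outside the naming rule. Rgs5, which did not pass, had a log2 change of 0.19 that ranged from −0.023 without Erg replicate 1 to 0.44 without control replicate 3. With 3 libraries a group, 82 of 100 simulated 2-fold changes were recovered, in a simulation with far fewer changed genes than were called here and no outlying library.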

Other observations

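Among the most abundant transcripts, 5 were higher with Erg and 18 lower by the same test, with a mean above 1000 CPM in the higher group and a log2 change beyond 1.5 in size. This selection was made after the values were seen. Besides Erg itself, Timp3 and Ccnd1, the rises were Colec12, a scavenger receptor of the collectin family, and Pam, a peptide amidating enzyme. Colec12 stood at 2419.7 ± 130.2 against 492 ± 5.27 CPM (SD, n = 3, log2 change 2.30) and Pam at 1574 ± 52.6 against 472 ± 11.5 CPM (log2 change 1.74), with Erg given first.

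The falls held several secreted proteins. Ace, angiotensin converting enzyme, stood at 742 ± 13.6 against 6223 ± 245 CPM (SD, n = 3, log2 change −3.07) and Fbln2, fibulin 2 of the matrix, at 1436 ± 62.1 against 7886 ± 98.6 CPM (log2 change −2.46). Gas6, a ligand of the TAM receptors, stood at 1515 ± 56.0 against 5105 ± 375 CPM (log2 change −1.75) and Gsn, gelsolin, at 3976 ± 464 against 11599.8 ± 727 CPM (log2 change −1.54).

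An Ensembl gene without a symbol in the name table, ENSMUSG00000097829, had 0 counts in every Erg library at day 7 and a mean of 32.2 ± 10.8 CPM (SD, n = 3) in control, at least 786-fold lower against a floor of 3 counts over the 3 Erg libraries. It stood at 37.99, 38.9 and 19.7 CPM in those control libraries, 43.0, 52.7 and 29.1 CPM with Erg at day 3 and 39.1, 44.3 and 49.7 CPM in control at day 3. A library at 0 was also present in SEG at day 7, at 0, 39.1 and 35.5 CPM, and with Sox17 at day 7, at 0, 9.90 and 33.7 CPM. Those libraries were replicate 1 of SEG and replicate 1 of Sox17, the outlying ones named above. Of the other genes called lower with no count with Erg, Gm13502, Gm6741 and Gm49450 were also at 0 in only these libraries of SEG and Sox17 at day 7. The rest of those genes did not have this pattern. Whether the 0 counts go with Erg or with a difference between libraries was not tested. These genes lie outside the naming rule and were chosen after their values were seen.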
